A study of Mus musculus with 6 samples.

Results

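The TRIM (tripartite motif) genes of a mouse cell line labelled as aortic endothelial are described here across 6 RNA sequencing libraries. Members were all genes of the expression tables whose symbol is Trim followed by a number, which gave 65 of 21675 genes. Of these, 13 belonged to a list of interferon-inducible TRIM genes and 52 did not. The list names 16 genes, and 3 of them (Trim5, Trim30c and Trim34b) have no row in these tables and were not analysed here. At least 1 TPM, a unit that gives each transcript's share of a library corrected for length, was reached in some library by 36 members, 11 of them interferon-inducible and 25 not. The other 29 members stayed under 1 TPM in every library, and 6 of these were listed at 0 throughout.

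The line had been immortalised with SV40 under doxycycline control, carried the Fn AB+/- genotype, and was taken off doxycycline and plated in 10% serum. Rescue cells carried a CRISPR disruption of Ptbp1, which encodes a splicing repressor, together with a human PTBP1 cDNA, KO cells carried the disruption alone as 1 single-cell clone, and WT cells carried neither. All 3 lines were studied with TNF, an inflammatory cytokine given at 30 ng/mL, and without it, so each of the 6 groups held 1 library and there were no replicates. Depth was 19598773 to 21626838 expected counts per library.

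The labels and the names of the deposited files place 4 of 6 libraries in different groups, and the groups below are those the file names read, with the file name term basal taken to mean WT. The libraries named Rescue with TNF and Rescue are labelled Rescue with TNF and KO with TNF, those named KO with TNF and KO are labelled WT with TNF and Rescue, and those named WT with TNF and WT are labelled KO and WT. Ptbp2, which is silenced by Ptbp1, had 45.29 and 42.21 TPM in the Rescue-named libraries with and without TNF, 106.05 and 127.88 TPM in the KO-named ones, and 20.67 and 22.79 TPM in the WT-named ones. Ccl2, a chemokine gene that TNF switches on, had 5201.84, 1138.03 and 6016.54 TPM in the Rescue, KO and WT libraries named TNF, against 169.15, 104.66 and 148.6 TPM in those not so named. RNA of Ptbp1 itself was at 128.9 and 126.63 TPM in Rescue, 275.13 and 265.75 TPM in KO, and 270.18 and 236.22 TPM in WT, with and without TNF, so it was not lower in the libraries named KO. Every direction below rests on the file names. With the labels' groups, edgeR called 0 genes in any of the 5 comparisons made here, with 491 genes at an unadjusted p under 0.05 for TNF, 29 for KO against WT, 27 for Rescue against KO, 91 for Rescue against WT and 841 for the TNF response of KO, and DESeq2 called 8 higher and 85 lower genes for TNF, 0 for KO against WT, 3 for Rescue against KO, 9 for Rescue against WT, and 84 higher and 211 lower for the TNF response of KO.

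Markers were checked against the labelled cell type. Of 8 endothelial markers 7 stayed under 1 TPM in every library, Pecam1, Cdh5 and Kdr among them, and only Eng reached that level (147.3 to 199.88 TPM). Apart from Eng, these markers thus went against the labelled endothelial type. Smooth muscle and fibroblast markers reached 1 TPM for 9 of 10 genes, and their summed level was 4845.02 and 10791.43 TPM in Rescue, 6608.93 and 10303.68 TPM in KO, and 5886.63 and 11297.31 TPM in WT, with and without TNF. The sum, most of it Col1a1, Col1a2 and Acta2, was lower with TNF in each line. Dcn went the other way, with 42.81 and 3.09 TPM in Rescue, 4.29 and 0.46 TPM in KO, and 75.43 and 3.15 TPM in WT, with and without TNF. Lum was also higher with TNF in Rescue and WT. Some of these markers also differed between the lines. Pdgfra had 21.12 and 20.33 TPM in Rescue, 18.26 and 18.46 TPM in KO, and 109.84 and 136.25 TPM in WT, with and without TNF. Cnn1 had 0.1 and 0.64 TPM in Rescue, 13.37 and 21.64 TPM in KO, and 12.73 and 34.64 TPM in WT. Marker levels thus move with the comparisons below, both of TNF and between lines, and their part in those results was not tested. The blood cell marker Ptprc was listed at 0 in every library, and 2 of 5 blood and macrophage markers reached 1 TPM, with a summed level between 20.82 and 33.73 TPM.

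Most proteins of the TRIM family carry a RING domain, which attaches ubiquitin to target proteins. After it come B-box and coiled-coil regions and a variable C-terminal domain. Many TRIM proteins act in innate immunity, where they tag or restrain sensors of viral RNA and DNA and block retroviruses. The interferon-inducible members are switched on when type I interferon activates transcription factors that bind the interferon-stimulated response element (ISRE). In vessel wall cells TNF acts mainly through NF-kB, and it can also lead to interferon signalling through Irf1 and interferon beta.

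The promoters of the interferon-inducible members were searched for the ISRE because it is the DNA element that defines the group's known regulation. RefSeq promoters (GRCm38.p6, 250 bases before to 50 bases after the gene start) were matched for 49 of 65 members, 12 interferon-inducible and 37 others. The motif searched was GAAA, then 2 bases of any kind, then GAAA again, on either strand. It was found in 7 of 12 interferon-inducible members (58.3%), in 1 of 37 other members (2.7%; Trim2) and in 3.99% of all 27025 genes with a promoter. Trim14 had no promoter entry. The windows below lie on chromosome 7 except that of Trim26 on chromosome 17, are written 5′ to 3′ in the direction of the gene, and show the motif in capitals, as its reverse complement for all but Trim21. In Trim21 and Trim26 the capitals hold a pair of overlapping matches.
Trim12a (chr7:104315466-104315495, minus strand): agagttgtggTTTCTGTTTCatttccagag
Trim12c (chr7:104353350-104353409, minus strand): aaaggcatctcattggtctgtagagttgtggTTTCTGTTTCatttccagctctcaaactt
Trim21 (chr7:102565447-102565476, minus strand): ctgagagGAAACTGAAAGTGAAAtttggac
Trim26 (chr17:36836964-36837023, plus strand): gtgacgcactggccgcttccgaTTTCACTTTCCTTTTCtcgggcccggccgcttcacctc
Trim30a (chr7:104465195-104465254, minus strand): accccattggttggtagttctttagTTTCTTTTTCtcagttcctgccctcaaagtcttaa
Trim30d (chr7:104507856-104507915, minus strand): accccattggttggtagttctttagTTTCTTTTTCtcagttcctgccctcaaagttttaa
Trim34a (chr7:104244457-104244486, plus strand): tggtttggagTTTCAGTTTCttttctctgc

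Trim12a, Trim21 and Trim34a hold the motif just after the annotated start, 10 or 13 bases downstream, and Trim12c, Trim30a and Trim30d hold it 19, 26 and 31 bases upstream. A second annotated promoter of Trim30a holds it 2 bases after its start. The windows of Trim30a and Trim30d differ at 1 of 60 bases. Trim12a and Trim12c share the motif and the bases on both sides of it. The share of interferon-inducible members with the motif counts such alike stretches separately. Of the 24 genes of the interferon pathway list with a promoter, 7 also held the motif (Ddx58, Ifih1, Ifit1, Ifit3, Isg15, Rsad2 and Stat2). An NF-kB motif (GGG, then 2 bases of any kind, then TTTCC, on either strand) was found in 0 of 49 TRIM genes with a promoter and in 1.89% of all 27025 genes with one. A match describes these letters only.

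The interferon-inducible members as a group were highest in the WT-named library with TNF and lowest in the Rescue-named library without it. Their summed level was 143.88 and 97.11 TPM in Rescue, 191.31 and 180.72 TPM in KO, and 305.1 and 126.73 TPM in WT, with and without TNF. The same sums for the 52 other members were 1063.95 and 1064.28 TPM in Rescue, 964.01 and 983.53 TPM in KO, and 937.77 and 968.64 TPM in WT. The wide range of the interferon-inducible sum came with a narrower range in the sum of the other members. Single genes among those others varied more than their sum. Trim47 went from 52.93 TPM in untreated WT to 162.72 TPM in Rescue with TNF, and Trim59 from 46.83 TPM in WT with TNF to 143.74 TPM in untreated KO. In bulk RNA, a change in the number of cells that express a gene and a change in RNA per cell cannot be told apart.

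Of the 13 interferon-inducible genes, 8 lie on chromosome 7, most of them in the cluster of the Trim6, Trim12, Trim30 and Trim34 genes. Mouse Trim12a and Trim12c are relatives of the human retrovirus restriction factor TRIM5, and mouse Trim30a dampens NF-kB signalling. Their sequences are near-identical copies in part, so the split of reads between Trim12a and Trim12c, and between Trim30a and Trim30d, is uncertain. The 8 genes summed to 38.63 and 20.28 TPM in Rescue, 71.43 and 72.86 TPM in KO, and 156.47 and 44.87 TPM in WT, with and without TNF.

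Trim30a (chr7:104409025-104465193, minus strand) had 3.56 and 1.54 TPM in Rescue, 9.31 and 11.02 TPM in KO, and 34.1 and 5.11 TPM in WT, with and without TNF. It was thus highest in WT with TNF and, among untreated libraries, highest in KO. Trim30d followed with 2.76 and 1.18 TPM in Rescue, 3.85 and 3.99 TPM in KO, and 15.68 and 3.72 TPM in WT. Trim12c (chr7:104338754-104353362, minus strand) had 6.87 and 3.57 TPM in Rescue, 14.18 and 17.4 TPM in KO, and 28.95 and 8.92 TPM in WT. For both Trim30a and Trim12c, the KO library with TNF was below the KO library without it.

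Trim12a had 7.63 and 5.02 TPM in Rescue, 11.97 and 11.75 TPM in KO, and 28.36 and 14.18 TPM in WT, with and without TNF. Trim34a, from the same cluster, had 4.96 and 2.14 TPM in Rescue, 14.56 and 13.89 TPM in KO, and 18.45 and 3.51 TPM in WT. Trim12a in untreated KO was below untreated WT, whereas Trim34a in untreated KO was above it. Trim6, which in human cells makes free ubiquitin chains that promote interferon signalling, was low, with 0.33 and 0.58 TPM in Rescue, 1.29 and 1.15 TPM in KO, and 1.74 and 1.58 TPM in WT (13 to 76 counts).

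Trim21, a cytosolic receptor for antibody-coated viruses, also lies on chromosome 7 (chr7:102557921-102565486, minus strand). It had 12.48 and 6.25 TPM in Rescue, 16.27 and 13.66 TPM in KO, and 29.13 and 7.81 TPM in WT, with and without TNF. Each line was higher with TNF, with the narrowest step in KO.

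Outside chromosome 7, the group holds regulators of sensors. Trim25 (chr11:88999376-89020293, plus strand), the ligase best known for activating the RNA sensor encoded by Ddx58, had 32.42 and 17.3 TPM in Rescue, 51.9 and 40.8 TPM in KO, and 63.76 and 24.32 TPM in WT, with and without TNF. Trim56, which promotes antiviral DNA sensing, had 29.39 and 17.44 TPM in Rescue, 19.75 and 17.13 TPM in KO, and 36.0 and 22.31 TPM in WT. In Trim56, KO was below WT in both treatments.

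Trim14, a mitochondrial adaptor of RNA sensing, had 0.53 and 0.22 TPM in Rescue, 3.57 and 3.22 TPM in KO, and 2.6 and 0.31 TPM in WT, with and without TNF. These levels rest on 7 and 3 counts in Rescue, 49 and 43 counts in KO, and 38 and 4 counts in WT. Its gene overlaps Nans on the opposite strand by 9852 bases, and reads of such a pair cannot be told apart where the counting did not use strand, which was not stated. Trim26 ranged from 34.84 to 46.71 TPM over all 6 libraries, the narrowest range of the 11 relative to its level. Trim30b and Trim38 stayed at or under 0.15 TPM.

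**Figure D1:**
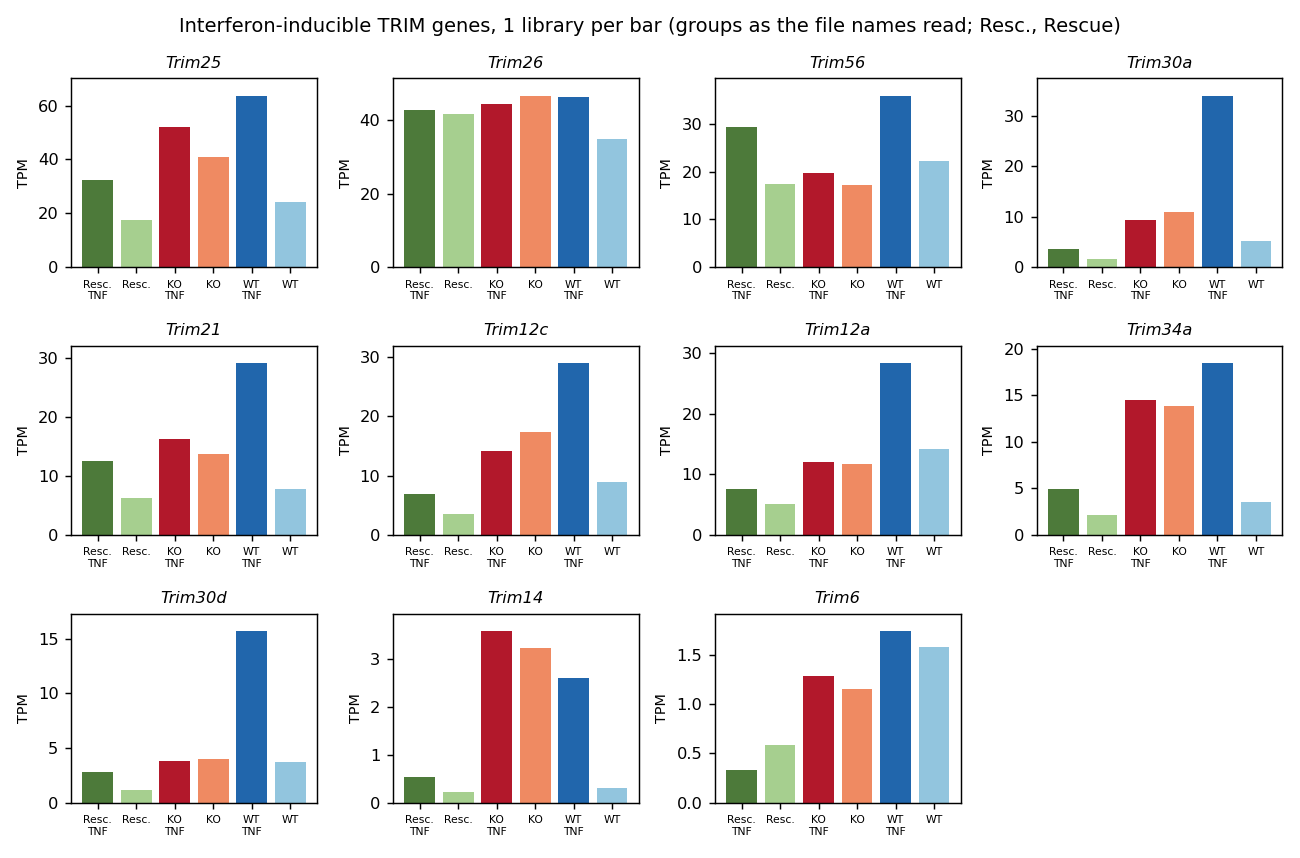
Level in TPM (vertical axis, linear from 0, own scale per panel) of the 11 interferon-inducible TRIM genes that reached 1 TPM, with 1 bar per library. The WT library with TNF is the highest bar for every gene but Trim14 and Trim26, where a KO library is highest.

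Responses to TNF were compared within each line as log2 ratios of scaled counts, 1 library against 1, with no test. In WT the median of the 11 interferon-inducible members was 1.84, with counting intervals whose medians were 1.67 and 2.02, and 8 of 11 were at least 2-fold higher with TNF, against 5.72% of all 12460 genes. In Rescue the median was 0.975 (interval medians 0.724 and 1.33), and 5 of 11 were at least 2-fold higher, against 4.45% of all genes. In KO the median was 0.154 (interval medians -0.198 and 0.427), and 0 of 11 were 2-fold higher, against 2.73% of all genes. Counting intervals cover counting error only and say nothing of culture to culture spread.

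The 25 other TRIM genes had medians of -0.07 in WT, 0.001 in Rescue and 0.03 in KO, close to the medians of all genes at -0.01, -0.01 and 0.004. Of these 25, 2 were at least 2-fold higher with TNF in WT, 2 in Rescue and 0 in KO. They were Trim47 and Trim65 in both lines, and they are taken up below. Within the interferon-inducible group, Trim30a had the largest ratio in WT at 7.26-fold (95% counting interval 6.29 to 8.56), with 2.37-fold in Rescue (1.78 to 3.31) and 0.898-fold in KO (0.779 to 1.03). Trim34a had 5.64-fold in WT (4.57 to 7.3), 2.38-fold in Rescue (1.77 to 3.38) and 1.11-fold in KO (0.963 to 1.29). Trim14 had 6.39-fold in WT with a wide interval from 3.25 to 34.8. Trim25 had 2.87-fold in WT (2.7 to 3.05), 1.97-fold in Rescue (1.82 to 2.12) and 1.35-fold in KO (1.28 to 1.43). Its counting intervals did not overlap between the 3 lines. Here and below, the share of all genes with separate intervals is not given, and such intervals are narrow for genes with many counts.

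**Figure D2:**
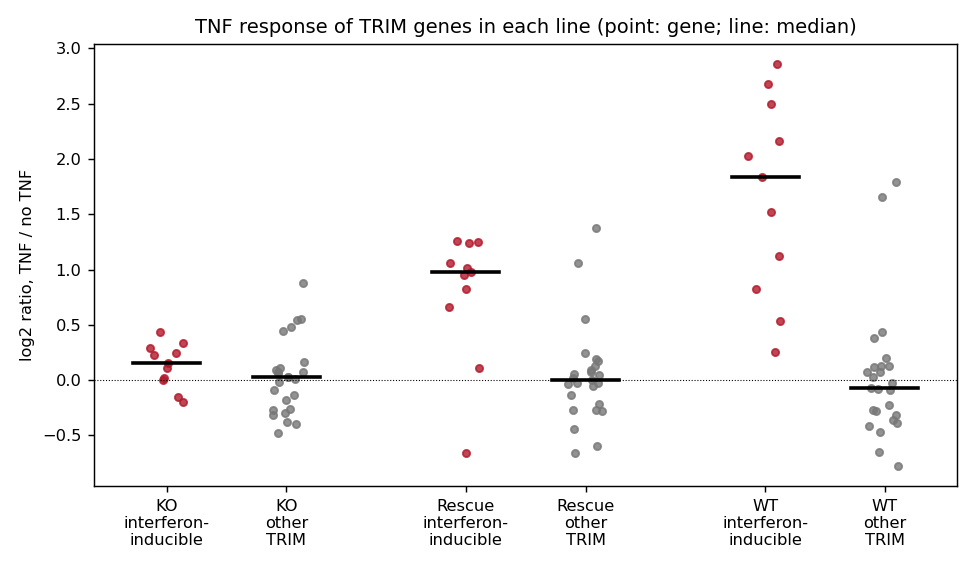
Log2 ratio of TNF over no TNF (vertical axis) for TRIM genes that reached 1 TPM, per line and per class, with 1 point per gene and a black line at the median (11 interferon-inducible and 25 other genes in each line). Medians of the interferon-inducible genes are 0.154 in KO, 0.975 in Rescue and 1.84 in WT, while those of the other genes stay near 0.

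KO and WT were also compared within each treatment. Without TNF, 8 of 11 interferon-inducible members were above WT in KO, while Trim12a, Trim56 and Trim6 were below it. The median of KO against WT was 0.773, with 3 of 11 at least 2-fold higher (background 4.98%) and 0 at least 2-fold lower (background 8.14%). With TNF the median of KO against WT was -0.85, with 0 of 11 at least 2-fold higher (background 6.4%) and 4 of 11 at least 2-fold lower (background 9.52%). Trim14, Trim34a and Trim30a were those higher in untreated KO, at log2 ratios of 2.87, 1.99 and 1.13. Trim30d, Trim30a, Trim12a and Trim12c were those lower in KO with TNF, at -2.04, -1.88, -1.25 and -1.05.

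The median of Rescue lay below KO in both treatments. Without TNF the median of Rescue against KO was -1.32, with 9 of 11 at least 2-fold lower (background 4.97%). With TNF it was -0.78, with 5 of 11 at least 2-fold lower (background 5.08%) and Trim56 higher, at 29.39 TPM in Rescue against 19.75 TPM in KO. Against WT, Rescue had a median of -0.75 without TNF, with 5 of 11 at least 2-fold lower (background 6.95%), and of -1.99 with TNF, with 9 of 11 at least 2-fold lower (background 7.43%). Trim26 in untreated Rescue was above WT, at 41.8 TPM against 34.84 TPM.

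The TNF response of KO was set against a shared response fitted to WT and Rescue, in an edgeR model with a separate term for KO. The residual of that model is the difference between the responses of WT and Rescue, so its p-values treat those lines as replicates. Of 40 TRIM genes tested, 4 passed an adjusted p under 0.05, 1 higher and 3 lower, against 1.7% of all 13147 genes (0.502% higher and 1.2% lower). The difference in log2 response was -2.48 ± 0.46 for Trim30a (edgeR adjusted p = 0.0344), -1.87 ± 0.37 for Trim30d (adjusted p = 0.0444) and -1.71 ± 0.29 for Trim12c (adjusted p = 0.0255). Here and below, ± gives the log2 change over the root of edgeR's F, which repeats the test and is no separate error. For Trim16 the difference was 1.04 ± 0.17 (adjusted p = 0.0217). Trim16, which helps clear damaged lysosomes, had 15.69 and 24.92 TPM in Rescue, 23.47 and 17.14 TPM in KO, and 15.61 and 22.75 TPM in WT, with and without TNF. TNF libraries were lower than untreated ones in Rescue and WT and higher in KO. With the second deposited quantification 0 TRIM genes passed, DESeq2 called Trim12c and Trim30a, and DESeq2 size factors in edgeR left Trim16 alone. Trim16 overlaps Fbxw10 on the same strand by 3740 bases.

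Over the 3 lines together, TNF changed 8 of 40 tested TRIM genes in an additive edgeR model of line and TNF, with 5 higher and 3 lower, against 22.0% of 12729 genes in either direction (11.2% higher and 10.8% lower). The yardstick of this model is how far the lines or treatments differ in an effect, since there are no replicates. Trim65 rose by 1.30 ± 0.26 (adjusted p = 0.0308), Trim47 by 1.20 ± 0.16 (adjusted p = 0.014), Trim25 by 0.97 ± 0.21 (adjusted p = 0.0351), Trim56 by 0.65 ± 0.13 (adjusted p = 0.0293) and Trim8 by 0.49 ± 0.07 (adjusted p = 0.014). Trim59 fell by 0.61 ± 0.09 (adjusted p = 0.0173), Trim24 by 0.41 ± 0.06 (adjusted p = 0.0179) and Trim35 by 0.23 ± 0.06 (adjusted p = 0.0477). Of the 11 interferon-inducible genes only Trim25 and Trim56 passed, although the list's median was 0.974 against -0.01 over all genes tested. Leaving out the library named KO or that named KO with TNF gave 16 TRIM genes, adding Trim12a, Trim12c, Trim14, Trim16, Trim21, Trim30a, Trim30d, Trim34a and Trim37 and losing Trim35. Leaving out either WT library left Trim47 and Trim8, and leaving out either Rescue library left none of the TRIM genes. Calls over all genes rose without either KO library and dropped without either WT or either Rescue library. The rise and the drop are thus not particular to TRIM genes.

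Trim47 and Trim65 were the other TRIM genes with the largest TNF ratios. They are neighbours on chromosome 11 (chr11:116105752-116127210 and chr11:116121846-116131128, both on the minus strand), and their annotated bounds overlap by 5365 bases, so reads of the shared stretch may be split between them. Trim65 is a ligase of the double-stranded RNA sensor encoded by Ifih1. It had 8.32 and 3.33 TPM in Rescue, 2.33 and 1.76 TPM in KO, and 11.76 and 3.67 TPM in WT, with and without TNF. Both KO values were below all 4 values of the other lines. The TNF ratio of Trim65 was 2.59-fold in Rescue (2.08 to 3.31), 1.4-fold in KO (0.982 to 2.03) and 3.46-fold in WT (2.83 to 4.38).

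Trim47, a RING and SPRY domain ligase, was among the most abundant members, with 162.72 and 81.84 TPM in Rescue, 99.66 and 57.51 TPM in KO, and 152.6 and 52.93 TPM in WT. Its TNF ratio was 2.09-fold in Rescue (1.97 to 2.22), 1.84-fold in KO (1.71 to 1.99) and 3.15-fold in WT (2.93 to 3.4). The intervals of Rescue and KO overlapped, and that of WT lay above both. Trim8, which promotes NF-kB signalling, had 58.98 and 42.22 TPM in Rescue, 71.26 and 51.57 TPM in KO, and 65.27 and 54.93 TPM in WT, and was higher with TNF in each line.

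Among the genes that fell with TNF, Trim59 encodes a membrane-anchored ligase. It had 65.8 and 109.27 TPM in Rescue, 103.93 and 143.74 TPM in KO, and 46.83 and 87.72 TPM in WT, with and without TNF, and was lower with TNF in each line. Trim24, a chromatin-reading co-regulator of nuclear receptors, had 20.95 and 29.86 TPM in Rescue, 25.38 and 33.49 TPM in KO, and 24.62 and 37.4 TPM in WT. Trim35 was among the 5 most abundant members, with 114.84 and 140.11 TPM in Rescue, 122.44 and 147.72 TPM in KO, and 107.36 and 142.54 TPM in WT.

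Between KO and WT, over both treatments, 8 of 40 tested TRIM genes passed in edgeR, 4 higher and 4 lower, against 33.0% of all genes in either direction (16.8% higher and 16.3% lower). Trim44 had the smallest adjusted p. It lacks a RING domain and carries a zinc finger of the kind found in deubiquitinases. Trim44 (chr2:102300119-102407828, minus strand) had 45.3 and 45.13 TPM in Rescue, 17.43 and 18.19 TPM in KO, and 45.73 and 47.54 TPM in WT, with and without TNF. Its 95% counting intervals reached at most 19.31 TPM in KO and did not go below 43.47 TPM in the other lines, so KO did not overlap with them. KO against WT fell by 1.38 ± 0.07 (adjusted p = 0.00147), and Rescue against KO rose by 1.25 ± 0.07 (adjusted p = 0.00354). Rescue against WT did not pass, at single-library log2 ratios of -0.13 without and -0.13 with TNF.

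Trim59 was higher in KO than in WT by 0.94 ± 0.11 (adjusted p = 0.00641) and lower in Rescue than in KO by 0.63 ± 0.11 (adjusted p = 0.0259). Within each treatment the order of Trim59 was KO above Rescue above WT, with separate counting intervals. Trim65 fell in KO against WT by 1.75 ± 0.33 (adjusted p = 0.0182), and its log2 change of 1.30 in Rescue against KO did not pass (adjusted p = 0.0522). When the libraries were left out in turn, Trim44 and Trim59 were the TRIM genes called in KO against WT each time. They were the only ones called without either Rescue library, and without the WT library with TNF the calls were Trim14, Trim44 and Trim59. Calls over all genes dropped in these fits too.

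**Figure D3:**
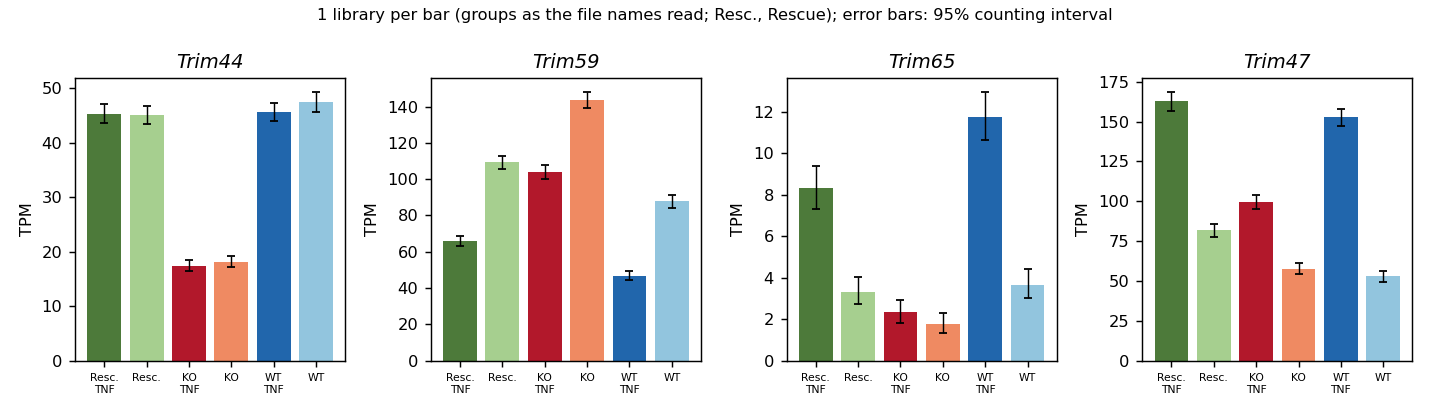
Level in TPM (vertical axis, linear from 0, own scale per panel) of Trim44, Trim59, Trim65 and Trim47, with 1 bar per library and 95% counting intervals as error bars. Trim44 is at 17.43 and 18.19 TPM in KO and at 45.13 TPM or more in the other 4 libraries.

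The other calls in KO against WT were smaller or rested on low counts. Trim56 fell by 0.62 ± 0.16 (adjusted p = 0.0375) and Trim11, a ligase that helps remove misfolded proteins, by 0.31 ± 0.07 (adjusted p = 0.0285). Trim11 had 78.29 and 75.35 TPM in Rescue, 53.78 and 56.04 TPM in KO, and 68.13 and 68.67 TPM in WT, with KO below the other lines in both treatments. Trim28, the co-repressor that silences retroelements with KRAB zinc finger proteins, rose by 0.27 ± 0.07 (adjusted p = 0.0412). It was among the most abundant members, with 153.57 and 155.51 TPM in Rescue, 142.19 and 141.55 TPM in KO, and 111.37 and 124.26 TPM in WT. Trim37, which limits centrosome assembly, rose by 0.34 ± 0.09 (adjusted p = 0.0459) and had 29.79 and 26.35 TPM in Rescue, 22.55 and 21.37 TPM in KO, and 19.4 and 15.64 TPM in WT. Trim36, a microtubule-associated ligase, rose by 1.73 ± 0.48 (adjusted p = 0.048) on 10 and 21 counts in KO against 4 and 5 in WT, with and without TNF. DESeq2 did not call Trim28, Trim36 or Trim37, which left 5 of the 8. With the second deposited quantification Trim56 was not called. Trim28 overlaps Zbtb45 on the opposite strand by 6137 bases.

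Rescue against KO gave 9 calls among 40 TRIM genes, 2 higher and 7 lower, against 20.4% of all genes in either direction (9.79% higher and 10.6% lower). Trim44 and Trim11 rose, the second by 0.39 ± 0.07 (adjusted p = 0.027). Their log2 changes in KO against WT, a comparison that shares the KO libraries, were -1.38 and -0.31. The interferon-inducible genes Trim14, Trim6 and Trim25 fell by 3.38 ± 0.79 (adjusted p = 0.0439), 1.51 ± 0.35 (adjusted p = 0.0434) and 1.08 ± 0.26 (adjusted p = 0.0443). The list's median was -1.28 against 0.006 over all genes tested. Trim2, which marks neurofilament for degradation in neurons, fell by 0.64 ± 0.10 (adjusted p = 0.0217), with 20.43 and 21.45 TPM in Rescue, 29.5 and 31.79 TPM in KO, and 24.66 and 33.66 TPM in WT. Trim59, Trim8 and Trim24 fell as well, the last 2 by 0.38 and 0.32. With the second deposited quantification Trim24 and Trim25 were not called and Trim65 was added. DESeq2 did not call Trim24 and added Trim12a, Trim12c, Trim34a and Trim65. Without either Rescue library none of the TRIM genes was called, and calls over all genes dropped too. Without either WT library Trim12a, Trim12c, Trim30a and Trim34a were among the TRIM genes added.

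Rescue against WT gave 10 calls, 4 higher and 6 lower, against 24.6% of all genes in either direction (12.5% higher and 12.1% lower). Trim30d fell by 2.30 ± 0.54 (adjusted p = 0.0383), Trim6 by 1.95 ± 0.35 (adjusted p = 0.0205) and Trim12a by 1.81 ± 0.27 (adjusted p = 0.014), all interferon-inducible. Trim2, Trim24 and Trim8 fell by 0.56, 0.37 and 0.35. Among those higher in Rescue, Trim27, a RING ligase that acts with the retromer in endosome transport, rose by 0.66 ± 0.14 (adjusted p = 0.0289) and had 58.96 and 54.12 TPM in Rescue, 51.33 and 39.92 TPM in KO, and 31.2 and 35.98 TPM in WT. Trim37 rose by 0.59 ± 0.09 (adjusted p = 0.0151), Trim28 by 0.30 ± 0.07 (adjusted p = 0.0395) and Trim36 by 2.09 ± 0.46 (adjusted p = 0.0339). Without either Rescue library none of the TRIM genes was called, and fewer were called without the WT library with TNF. More were called without either KO library. Calls over all genes moved the same way in each of these fits.

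Trim32, Trim3 and Trim33 were steady members. Trim33, a relative of Trim24 and Trim28, ranged from 15.12 to 16.44 TPM over all 6 libraries. The muscle ligases Trim54, Trim55 and Trim63 stayed under 1 TPM in every library. TRIM family genes without a Trim symbol gave 2 further cases. Mid1, a microtubule-bound ligase, had 32.5 and 30.44 TPM in Rescue, 14.92 and 18.89 TPM in KO, and 29.22 and 31.71 TPM in WT, and fell by 0.84 ± 0.13 in KO against WT (adjusted p = 0.0108) and rose by 0.81 ± 0.13 in Rescue against KO (adjusted p = 0.0205). Its relative Mid2 rose by 0.69 ± 0.13 in KO against WT (adjusted p = 0.0168) and fell by 0.53 ± 0.12 in Rescue against KO (adjusted p = 0.0443). Pml, which builds nuclear bodies, fell by 0.58 ± 0.08 in Rescue against KO (adjusted p = 0.0166), and Mefv was listed at 0.03 TPM at most.

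The interferon pathway genes were read beside the TRIM members. Of 26 tested, 5 rose with TNF over the 3 lines and 0 fell, where 11.2% of all genes rose and 10.8% fell, with a median of 1.21 against -0.01 over all genes. They were the transcription factor Irf1 (1.49 ± 0.38, adjusted p = 0.0498), the receptor chain Ifngr2 (0.79 ± 0.09, adjusted p = 0.0113), the receptor kinase Tyk2 (0.71 ± 0.06, adjusted p = 0.0085), the enzyme Uba7, which activates Isg15 for conjugation, (1.34 ± 0.31, adjusted p = 0.0404) and the kinase Tbk1 (0.36 ± 0.09, adjusted p = 0.0446). In KO against WT 0 rose and 2 fell (Ifngr1 and Tyk2), where 16.3% of all genes fell, and in Rescue against WT 0 rose and Tyk2 fell, where 12.1% of all genes fell. In Rescue against KO 0 rose and 4 fell (Usp18, Irf7, Ifih1 and Irf9, by 4.52, 3.52, 2.60 and 1.90), where 10.6% of all genes fell.

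Isg15, the ubiquitin-like modifier, had 115.86 and 22.39 TPM in Rescue, 507.3 and 442.57 TPM in KO, and 463.85 and 26.97 TPM in WT, with and without TNF. Untreated KO was near the level of WT with TNF. Irf1 differed, with 166.38 and 51.15 TPM in Rescue, 81.17 and 66.24 TPM in KO, and 259.2 and 58.25 TPM in WT. Interferon beta itself (Ifnb1) had at most 4 counts in a library. In the edgeR test of the TNF response of KO, 11 of the 26 were lower and 0 higher. Over all genes 1.2% were lower and 0.502% higher. The log2 difference was -2.74 for Irf7 (edgeR adjusted p = 0.00465) and -1.66 for Irf1 (adjusted p = 0.00709). A lower response is not a lower level. Irf7 had 24.85 and 5.53 TPM in Rescue, 113.24 and 111.82 TPM in KO, and 84.86 and 9.42 TPM in WT, with and without TNF. KO was thus the highest line for Irf7 in both treatments, whereas with TNF it was the lowest for Irf1.

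The genes most like the summed interferon-inducible TRIM level, by rank over the 6 libraries among 12424 genes outside the family and then by Pearson correlation, were Itgav, Tmem106a, Notch2, Il10rb and Smpdl3b. The rank correlation was 1 for 67 genes, so 6 libraries do not separate them. Tmem106a had 32.47 and 23.7 TPM in Rescue, 37.23 and 39.4 TPM in KO, and 53.85 and 30.36 TPM in WT, with and without TNF.

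Splicing of TRIM genes was read from psi, the fraction of transcripts of a gene that include a given stretch (a node). Of 184 TRIM nodes in 26 genes with at least 20 reads in all libraries, 2 differed by at least 0.2 psi between KO and both other lines in both treatments, against 0.14% of 91687 nodes. Both belong to 1 event in Trim7, a SPRY domain ligase that binds glycogenin. The retained intron node of Trim7 (chr11:48839486-48839933, GRCm38, plus strand, 448 bases) had psi 0.761 and 0.826 in Rescue, 0.52 and 0.289 in KO, and 0.756 and 0.65 in WT, with and without TNF, on 30 to 54 reads. The KO values were below all 4 others, and KO with TNF had an interval (0.387 to 0.65) that overlapped those of Rescue with TNF (0.612 to 0.861) and WT with TNF (0.634 to 0.843). Gm16170 overlaps Trim7 on the opposite strand by 8562 bases.

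At 0.1 psi, 3 TRIM nodes passed against 0.406% of all nodes, the third being a cassette exon of Trim46, which organises microtubules at the start of the axon in neurons. This exon part (chr3:89236303-89236600, minus strand, 298 bases) had psi 0.268 and 0.192 in Rescue, 0.463 and 0.556 in KO, and 0.352 and 0.303 in WT, with and without TNF, on 28 to 52 reads. KO was the highest line in both treatments, and with TNF its interval of 0.351 to 0.579 overlapped those of Rescue, 0.182 to 0.381, and WT, 0.251 to 0.472. Neither Trim7 nor Trim46 passed in KO against WT by level.

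**Figure D4:**
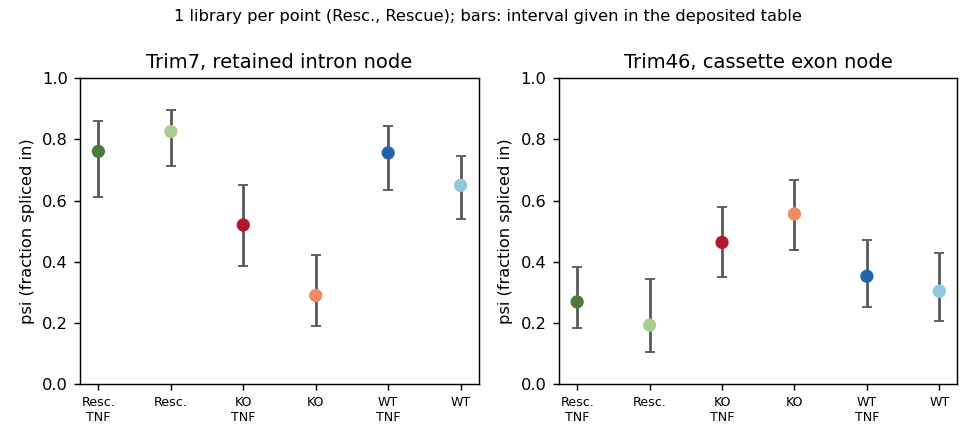
Psi (vertical axis, 0 to 1) of the Trim7 retained intron node and the Trim46 cassette exon node, with 1 point per library and the interval of the deposited table as bars. In Trim7 the KO points are the lowest (0.52 and 0.289), and in Trim46 they are the highest (0.463 and 0.556).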

How the data were processed

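RNA of 6 samples, 1 per group, was sequenced after library preparation with a SMARTER mRNA kit, per the labels' protocols. Expected counts and TPM values per gene were made with RSEM by the authors, per the submitters' processing notes. For the library named KO the values were per transcript and were summed here to genes. Further deposited files hold another set of estimated counts for genes (called the second quantification), whose tool is not given, and psi, a fraction for each splicing node with its reads, per the file headers. RSEM's version, the aligner, the build and strand are not given in the sources used here. No symbol was found for 748 identifiers in the second quantification. All 154 cassette exon nodes of TRIM genes with at least 20 reads shared an exon start or end with GENCODE vM21 (GRCm38). The match of the other node types, such as the Trim7 nodes, was not counted. GENCODE vM21 also gave gene bounds and strand.

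Expected counts were rounded and tested in R 4.3.3 with edgeR 4.0.16 (quasi-likelihood, TMM, filterByExpr), with Benjamini-Hochberg adjustment over all genes tested and a threshold of 0.05. The additive model of line and TNF left 2 residual degrees of freedom, and the model with a term for the TNF response of KO left 1. DESeq2 1.42.0 was an alternative. Only the edgeR fit of KO against WT was tried on simulated counts, with a fixed spread and no TNF effect. The other comparisons and DESeq2 were not simulated. Ratios of single libraries used TMM-scaled counts, a prior count of 2 and exact 95% counting intervals. Reads without molecular identifiers are not independent molecules, so intervals cover counting error only.

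Groups were taken from file names, and the labels' groups were an alternative. Named members were every interferon-inducible gene, the 5 other genes with the highest median TPM, those past a threshold and the 3 with the largest TNF ratios per line. A few further genes, such as Trim3, Trim7, Trim32, Trim33, Trim46 and the muscle genes, were named after their values were seen. Members and lists were chosen with earlier results of these data known.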

Additional observations from a re-analysis of the deposited data

Results flagged for a closer look

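In 4 TRIM genes the TNF response of KO differed from that of WT and Rescue by a test of the difference itself, the term for the TNF response of KO in edgeR. The log2 difference, KO minus the shared response fitted to WT and Rescue, was -2.48 for Trim30a, -1.87 for Trim30d, -1.71 for Trim12c and 1.04 for Trim16. With the second deposited quantification the differences were -2.36 for Trim30a, -1.60 for Trim30d, -1.62 for Trim12c and 1.03 for Trim16, and none of the 4 passed the threshold. Trim30a, Trim30d and Trim12c are partly near-identical to neighbouring copies, and how the authors' counting split reads between them was not tested.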

How the results depend on the processing

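With the labels' groups, edgeR called 0 TRIM genes in each of the 5 comparisons and 0 nodes passed. DESeq2 then called 4, all lower, for the TNF response of KO and 0 in the other comparisons. The median log2 response of the interferon-inducible genes was then 0.783 in WT, -2.65 in KO and -0.62 in Rescue. Called changes that turned round under the labels' groups were, for TNF, Trim25 (-0.40), Trim56 (-0.18), Trim59 (0.0917), Trim65 (-0.19) and Trim8 (-0.0495). For KO against WT they were Trim11 (0.21), Trim28 (-0.0385), Trim44 (0.50), Trim56 (0.33), Trim59 (-0.37) and Trim65 (1.33). For Rescue against KO they were Trim11 (-0.11), Trim14 (0.45), Trim2 (0.14), Trim44 (-0.51), Trim59 (0.48) and Trim8 (0.0132). Changes that had not been called turned round as well, for TNF in Trim12a (-1.12), Trim12c (-1.27), Trim14 (-1.40), Trim21 (-0.42), Trim30a (-1.72), Trim30d (-1.33) and Trim34a (-1.03) among others, and for KO against WT in Trim14 (-1.54) and Trim30d (0.51) among others. Trim12c in KO against WT was 0.79 without the library named KO with TNF and -0.91 without that named KO.

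DESeq2 gave 5 TRIM calls in KO against WT and 2 for the TNF response of KO, where DESeq2 size factors gave 1 and the second quantification 0. Leaving out 1 library at a time gave 0 to 16 TRIM calls for TNF, 2 to 11 for KO against WT, 0 to 15 for Rescue against KO and 0 to 18 for Rescue against WT. These fits leave 1 residual degree of freedom, and a lone library is assumed to vary like the others. Calls over all genes also dropped in each comparison without a Rescue library, so that drop is not particular to TRIM genes. For the TNF response of KO no residual was left and no such fit was run. The median response of WT was 1.52 over all listed genes with a count and 1.17 without the Trim12, Trim30 and Trim34 copies, where fewer genes enter. The cause of the other shifts was not tested. No paired analysis was possible because each group holds 1 library and the labels give no replicate numbers. At this depth, genes under 1 TPM, such as Trim36 with 4 to 26 counts, carry wide counting error.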

Other observations

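Trim2 was the 1 TRIM gene outside the interferon-inducible list with the ISRE motif in a promoter (chr3:84212791-84212820, GRCm38.p6, minus strand). The motif lies 28 bases after an annotated start inside the gene, whose bounds are chr3:84160439-84306877.
Trim2: tcagctttggTTTCCTTTTCtctaagacag
Counted over the whole gene, Trim2 had 20.43 and 24.66 TPM with TNF in Rescue and WT, against 21.45 and 33.66 TPM without it. The gene level was thus not higher with TNF in these lines, and RNA from this start alone was not measured. Trim26 had a pair of overlapping matches and, relative to its level, the narrowest range of the 11 interferon-inducible genes that reached 1 TPM, at 42.83 and 41.8 TPM in Rescue, 44.51 and 46.71 TPM in KO, and 46.27 and 34.84 TPM in WT, with and without TNF.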
